A study of Mus musculus with 10 samples.

Results

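The genes described here are the 9 whose products carry leukocytes from blood across the vessel wall: the selectins Sele and Selp, the immunoglobulin-family ligands Icam1, Icam2 and Vcam1, and the junctional proteins Pecam1, F11r, Jam2 and Jam3. They were taken by name, with earlier results of these data known, from a count table of 15341 genes in mouse heart. All 9 were present in the table and all 9 passed the filter on low counts, as did 12992 genes in all. RNA was sequenced from whole hearts of 10 male mice. The 5 control mice were Sphk1f/-:Sphk2f/-:Mx1Cre-, with a floxed and a null allele of each sphingosine kinase gene. The 5 plasma S1Pless mice were Sphk1f/-:Sphk2f/-:Mx1Cre+, with the same alleles and the Mx1Cre transgene, and the controls are described as their littermates. The null alleles are thus shared by both groups, and no wild-type heart was analysed here. The sources used here do not give age, housing or any induction of Mx1Cre. The Mx1 promoter is switched on by interferon and acts in blood-forming cells and in several other cell types, so the recombinase is not restricted to blood.

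Leukocytes leave the blood in steps. E-selectin and P-selectin, encoded by Sele and Selp, catch flowing cells by their sugar chains. ICAM-1, ICAM-2 and VCAM-1 then hold the cells through leukocyte integrins, and PECAM-1 and the junctional adhesion molecules JAM-A (F11r), JAM-B (Jam2) and JAM-C (Jam3) take part in passage between endothelial cells. Sele, Icam1 and Vcam1 are classic genes induced by tumour necrosis factor through NF-kappaB, whereas Pecam1, Icam2 and the JAM genes are expressed by resting endothelium. Sphingosine 1-phosphate (S1P), the product of the sphingosine kinases, supports the endothelial barrier through its receptor S1P1. The comparison asks how the transcripts of the heart differ when plasma S1P is lacking.

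Libraries held 16354071 to 20832566 counts, and 1 read stood for 0.0451 to 0.0658 CPM, the unit of all levels below, which is a gene's count divided by the library total and scaled by TMM factors. The targeted genes were lower in S1Pless hearts without passing the test: Sphk1 had a log2 fold change of -0.74 ± 0.28 (SE) and Sphk2 of -0.27 ± 0.11 (adjusted p = 0.168 and 0.180, edgeR's quasi-likelihood test). Both genes overlapped between the groups, so the labels are checked only in part. General endothelial markers were present in every heart, with a summed level of 1824 to 2124 CPM in controls and 1909 to 2210 CPM in S1Pless hearts over 18 of 18 markers. Cardiomyocyte markers summed to 56245 to 63711 CPM in controls and 46048 to 56767 CPM in S1Pless hearts. In whole-heart RNA, more cells of a type and more RNA per cell cannot be told apart.

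Icam1 and Vcam1 were higher in S1Pless hearts, by 1.66-fold and 1.55-fold, and the other 7 genes did not pass the test. None of the 9 was called lower by edgeR, DESeq2 or limma-voom, and none was lower at an unadjusted p below 0.05. The 2 calls among 9 genes stand beside a background of 3.40% of all tested genes called higher and 0.316% called lower (3.72% in either direction) at an adjusted p below 0.05. The fitted log2 fold change was above 0 in all 9 genes, as it was in 47.4% of all tested genes. Its median was 0.43 over the 9 genes and -0.01 over all tested genes. An unadjusted p below 0.05 was reached by 4 of the 9 genes (Icam1, Vcam1, Pecam1 and Icam2) and, with a higher level in S1Pless hearts, by 13.0% of all tested genes. In none of the 9 genes were the groups free of overlap. Over all tested genes 6.35% had groups without overlap, 4.53% with S1Pless hearts higher and 1.82% with them lower.

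**Figure D1:**
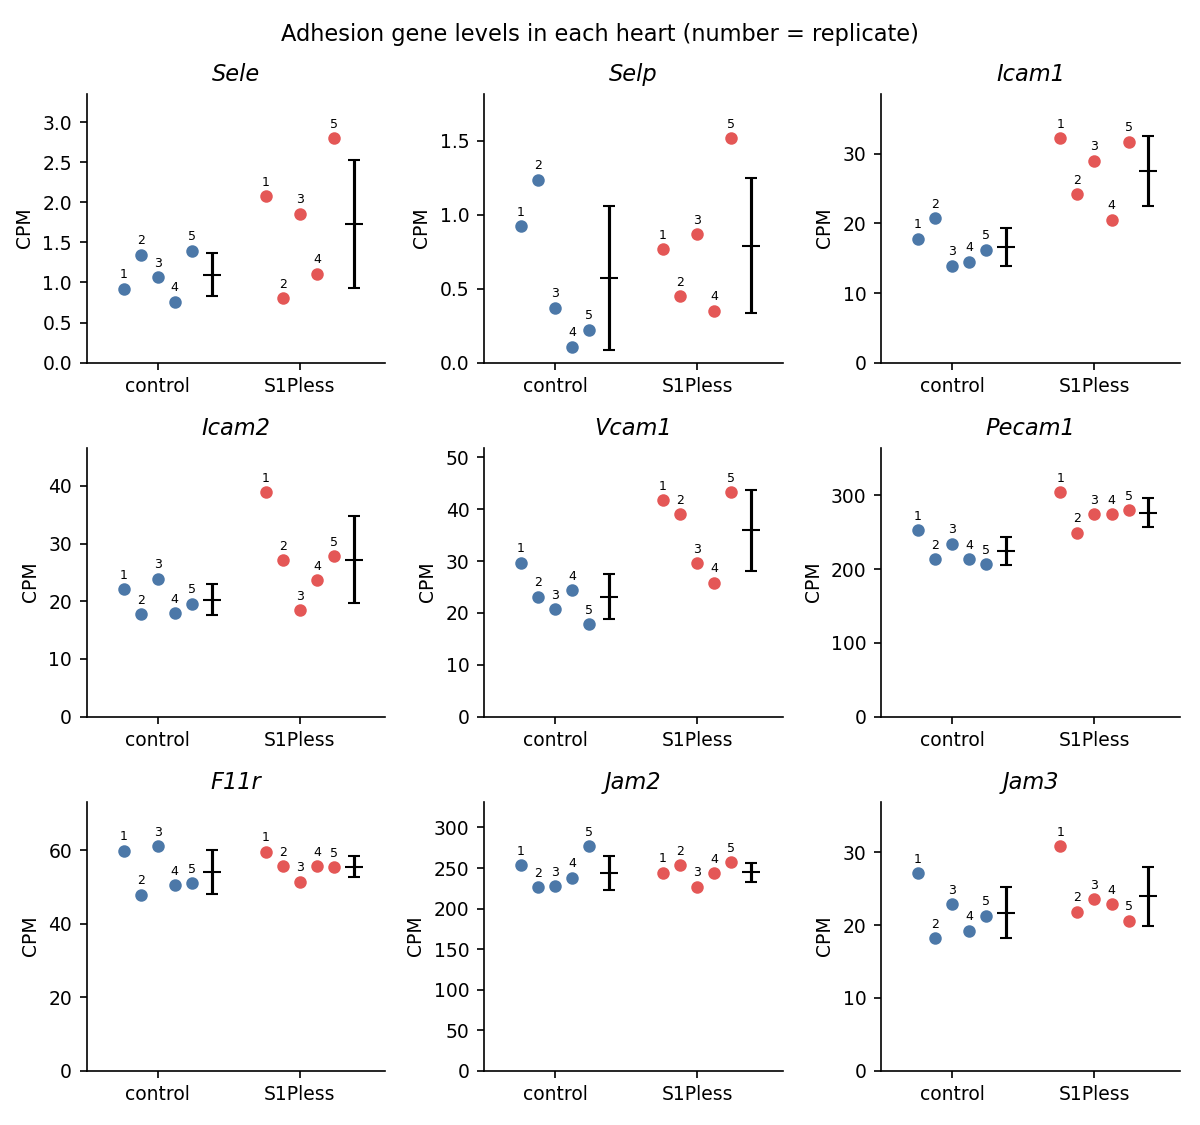
Level of each of the 9 adhesion genes (y axis, CPM, from 0) in the 5 control and 5 S1Pless hearts. Each point is a heart with its replicate number, and the black bars are the mean and SD of a group. In Icam1 S1Pless replicate 4 (20.6 CPM) is the only S1Pless heart not above the highest control (20.7 CPM), whereas the groups lie on top of each other in Jam2.

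The immunoglobulin-family ligands held both calls. Icam1 (ENSMUSG00000037405, chromosome 9) encodes the endothelial ligand of the leukocyte integrins LFA-1 and Mac-1. Control replicates 1 to 5 had 17.8, 20.7, 13.9, 14.5 and 16.3 CPM, and the S1Pless replicates had 32.2, 24.2, 29.0, 20.6 and 31.8 CPM. All S1Pless hearts but replicate 4 lay above every control, and replicate 4 lay just under control replicate 2. The group means were 16.7 ± 2.8 and 27.6 ± 5.0 CPM (SD, n = 5 each). This is a log2 fold change of 0.73 ± 0.14 (SE), with a 95% interval of 1.34-fold to 2.04-fold and an adjusted p of 0.0177 in edgeR's quasi-likelihood test. Leaving out control replicate 3 or 4 took Icam1 just past the threshold (adjusted p = 0.0538 and 0.0527). Sample titles end in a number, and with a block for hearts of neighbouring numbers the call was also lost (log2 fold change 0.62, adjusted p = 0.0812). Control replicates 3 and 4 shared a block without any S1Pless heart, so that fit drew no group contrast from them. The call was lost as well within the 7 hearts whose number begins with 38 (0.77, adjusted p = 0.0688).

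The promoters of Icam1 and Sele are shown because both are textbook NF-kappaB genes and differ in level and in the strength of the evidence here, and that of F11r because its level hardly differed between the groups. The lines give the 250 bases before the annotated start, 5′ to 3′ on the plus strand of GRCm38.p6, from RefSeq. Capitals mark the 9-base pattern GGANNNTCC, a short form of the NF-kappaB site that was chosen after the sequences had been read.
Icam1, chr9:21015690-21015939: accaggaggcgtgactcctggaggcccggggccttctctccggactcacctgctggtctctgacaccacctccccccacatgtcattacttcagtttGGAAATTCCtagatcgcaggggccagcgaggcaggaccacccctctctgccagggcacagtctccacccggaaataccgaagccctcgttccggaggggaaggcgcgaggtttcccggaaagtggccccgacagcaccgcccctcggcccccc
Sele, chr1:164047984-164048233: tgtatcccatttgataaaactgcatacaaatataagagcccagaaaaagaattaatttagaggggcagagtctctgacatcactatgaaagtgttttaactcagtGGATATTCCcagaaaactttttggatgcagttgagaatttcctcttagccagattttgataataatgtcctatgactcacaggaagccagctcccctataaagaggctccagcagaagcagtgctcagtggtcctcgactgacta
F11r, chr1:171437311-171437560: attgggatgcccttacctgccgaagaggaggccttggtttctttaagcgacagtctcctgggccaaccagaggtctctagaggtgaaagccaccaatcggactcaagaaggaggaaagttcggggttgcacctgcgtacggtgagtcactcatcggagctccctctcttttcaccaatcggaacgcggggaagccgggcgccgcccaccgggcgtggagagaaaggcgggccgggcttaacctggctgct
RefSeq promoter sequences of 300 bases, which run 50 bases past the start, were at hand for 4 of the 9 genes (Icam1, Sele, Selp and F11r). This pattern, whose letters are the same when searched on either strand, began 153 bases before the start in Icam1 and 145 bases before it in Sele. It was not in the windows of Selp and F11r. Of all 32851 promoter windows of this length, 8.62% held it. The longer kappaB consensus was in none of the 4 windows and in 8.46% of all, and the interferon-response element in none and in 3.44%. The ETS core CCGGAA, searched on both strands, occurred 3 times in Icam1, at 86, 65 and 39 bases before the start, and in 14.9% of all windows. Sele held TATAAA 49 bases before the start. It also held TGATAA, a form of the GATA factor motif picked after the sequences had been read, 239 and 89 bases before the start. In Icam1 TATAAA began at base 14 after the annotated start. Of all windows 13.6% held TATAAA on either strand and 9.05% TGATAA. The wider GATA motif that had been listed for the search was in 29.8% of all windows, and of the 4 windows in that of Sele alone, at the same places. These matches describe letters in the windows and were not tested against the counts.

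Vcam1 (ENSMUSG00000027962, chromosome 3) encodes the ligand of the integrin VLA-4 on monocytes and lymphocytes. Controls had 29.7, 23.1, 20.8, 24.4 and 17.8 CPM and S1Pless hearts 41.7, 39.0, 29.6, 25.9 and 43.2 CPM, in order of replicate. S1Pless replicates 1, 2 and 5 lay well above every control, while replicates 3 and 4 fell below control replicate 1. The means were 23.2 ± 4.4 and 35.9 ± 7.7 CPM (SD, n = 5 each), a log2 fold change of 0.64 ± 0.16 (SE) with a 95% interval of 1.23-fold to 1.97-fold. The adjusted p of 0.0415 in edgeR's test lay close to the threshold. The call held without control replicate 1, S1Pless replicate 3 or S1Pless replicate 4 and was lost without control replicates 2, 3, 4 or 5 or S1Pless replicates 1, 2 or 5 (adjusted p of 0.0735 to 0.107), with log2 fold changes of 0.55 to 0.74 over the 10 fits. The block of neighbouring title numbers (0.60, adjusted p = 0.141) and the 7 hearts whose number begins with 38 (0.59, adjusted p = 0.130) ended it too. Vcam1 is also made by stromal cells and macrophages, so its source in whole heart is not given by these counts.

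Icam2 (ENSMUSG00000001029, chromosome 11), a further LFA-1 ligand present on resting endothelium and platelets, did not pass. Its level in controls was 22.1, 17.7, 23.9, 17.9 and 19.6 CPM, against 38.9, 27.1, 18.5, 23.7 and 27.8 CPM in S1Pless hearts. S1Pless replicate 1 stood highest and replicate 3 lay within the control range. The log2 fold change was 0.43 ± 0.16 (SE; adjusted p = 0.168), and its 95% interval ran from 1.05-fold to 1.72-fold.

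The selectins had the fewest reads of the 9 genes, and neither passed. Sele (ENSMUSG00000026582, chromosome 1), which is made by activated endothelium, gave 98 reads over all controls and 175 over all S1Pless hearts. Controls had 0.921, 1.34, 1.06, 0.763 and 1.40 CPM and S1Pless hearts 2.08, 0.801, 1.86, 1.11 and 2.80 CPM. S1Pless replicates 1, 3 and 5 lay above every control, and replicates 2 and 4 lay among them. The log2 fold change of 0.65 ± 0.32 (SE) was similar in size to that of Vcam1, but its 95% interval ran from 0.973-fold to 2.54-fold and the adjusted p was 0.280. Without S1Pless replicate 5 the log2 fold change of Sele was 0.40.

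Selp (ENSMUSG00000026580, chromosome 1), which endothelial cells and platelets store in granules, was the least abundant of the 9 genes. Its 130 reads fell between 2 and 32 per heart. Controls had 0.921, 1.24, 0.373, 0.109 and 0.223 CPM and S1Pless hearts 0.767, 0.450, 0.871, 0.353 and 1.52 CPM. The filter asked for 0.532 CPM before scaling, which 2 controls and 3 S1Pless hearts reached, so Selp entered the test through hearts of both groups. The groups overlapped over almost their whole range, and the log2 fold change of 0.48 ± 0.55 (SE; adjusted p = 0.661) has a 95% interval of 0.620-fold to 3.16-fold. Without S1Pless replicate 5 it was 0.09. Of the platelet markers, Pf4, Ppbp and Itga2b were tested and Gp1bb was at 0 in every heart. The 4 platelet markers analysed, of 10 listed, summed to 7.15 to 11.8 CPM in controls and 8.27 to 18.3 CPM in S1Pless hearts, highest in S1Pless replicate 5. Their part in the level of Selp was not tested.

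Among the junctional genes Pecam1 came closest to a call. Pecam1 (ENSMUSG00000020717, chromosome 11) encodes CD31, found on all endothelium, platelets and many leukocytes. Controls had 253, 214, 234, 213 and 207 CPM and S1Pless hearts 304, 249.6, 274, 275 and 279.9 CPM. Only S1Pless replicate 2 fell below the highest control, replicate 1. The means were 224 ± 19 and 277 ± 19 CPM (SD, n = 5 each), the log2 fold change was 0.30 ± 0.09 (SE) and its 95% interval ran from 1.07-fold to 1.42-fold. The adjusted p of 0.0909 in edgeR's test did not pass, whereas DESeq2 (adjusted p = 0.0145) and limma-voom (adjusted p = 0.0457) called the gene on the same counts.

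The 3 JAM genes, which encode tight-junction proteins that bind leukocyte integrins, did not pass. F11r (ENSMUSG00000038235, chromosome 1), also made by platelets and epithelia, had 60.0, 47.9, 61.1, 50.6 and 51.0 CPM in controls and 59.7, 55.6, 51.5, 55.7 and 55.5 CPM in S1Pless hearts. All S1Pless hearts lay inside the control range, and the log2 fold change of 0.04 ± 0.09 (SE; adjusted p = 0.842) has a 95% interval of 0.902-fold to 1.17-fold. Jam2 (ENSMUSG00000053062, chromosome 16) had 253, 227, 227, 238 and 277 CPM in controls and 244, 253, 227, 243 and 257 CPM in S1Pless hearts. The log2 fold change of Jam2 was 0.0034 ± 0.09 (SE; adjusted p = 0.989), with an interval of 0.877-fold to 1.15-fold. The intervals of F11r and Jam2 both leave out a rise as large as the lower bound for Icam1. Jam3 (ENSMUSG00000031990, chromosome 9), shared by endothelium, smooth muscle and platelets, had 27.1, 18.2, 22.9, 19.2 and 21.3 CPM in controls and 30.8, 21.9, 23.6, 22.9 and 20.6 CPM in S1Pless hearts. The highest heart of each group was its replicate 1, and the log2 fold change was 0.14 ± 0.13 (SE; adjusted p = 0.573), with an interval of 0.912-fold to 1.34-fold.

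**Figure D2:**
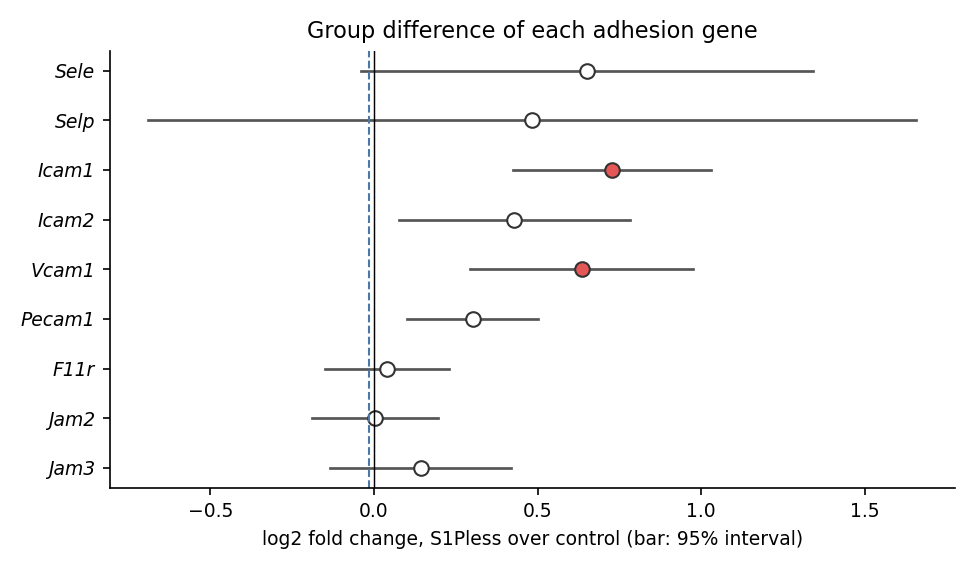
Log2 fold change of S1Pless over control for each of the 9 genes (x axis), with bars for the 95% interval from edgeR's quasi-likelihood fit. Filled points passed an adjusted p of 0.05 and the dashed line is the median of all tested genes (-0.01). Icam1 and Vcam1 lie at 0.73 and 0.64, Selp has the widest interval, and F11r and Jam2 lie at 0.04 and 0.0034 with narrow ones.

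Levels of different genes were set side by side per kilobase of exon, as CPM divided by the length of a gene's merged exons. In controls Jam2 (40.4 ± 3.5 CPM per kb, SD, n = 5) and Pecam1 (36.0 ± 3.1) stood highest, and their ranges overlapped. F11r followed at 20.3 ± 2.3, Icam2 at 10.6 ± 1.4 and Jam3 at 6.79 ± 1.1 CPM per kb, and these 3 did not overlap with each other or with the genes above. Icam1 (3.82 ± 0.63) and Vcam1 (2.61 ± 0.50) overlapped with each other. Sele (0.377 ± 0.093) and Selp (0.130 ± 0.11) were lowest and overlapped. In S1Pless hearts Pecam1 (44.4 ± 3.1 CPM per kb) and Jam2 (40.5 ± 1.9) changed places, with ranges that still overlapped. Icam1 reached 6.32 ± 1.2 CPM per kb, with a range that met that of Jam3 (7.48 ± 1.3), and Vcam1 reached 4.05 ± 0.87. Both selectins stayed under 1 CPM per kb in every heart. With the longest coding transcript as the length, Pecam1 (65.2 CPM per kb) stood above Jam2 (55.9) in controls and Vcam1 (6.67) beside Icam1 (6.57).

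The summed general endothelial markers overlapped between the groups. The mean log2 CPM of the 18 general endothelial markers was 6.03 to 6.26 in controls and 6.16 to 6.40 in S1Pless hearts. Of these markers edgeR called 1 higher, the transcription factor gene Erg, and none lower. Their median log2 fold change was 0.22, and 14 of 18 lay above 0. An unadjusted p below 0.05 was reached by 9, of which 1 was lower. Over all tested genes 3.40% were called higher and 47.4% lay above 0, and 13.0% were higher at an unadjusted p below 0.05. Of the 18 markers DESeq2 called 3 (Erg, Cd93 and, as lower, the receptor gene Flt1) and limma-voom 2 (Erg and Mmrn2). Single markers were free of overlap in 3 cases, Erg and Mmrn2 with S1Pless hearts higher and Flt1 with them lower. Over all tested genes 6.35% were free of overlap in either direction. Relative to the mean of the 18 markers in the same heart, Icam1 lay at -2.08 ± 0.27 in controls and -1.51 ± 0.27 in S1Pless hearts (log2 units, SD, n = 5 each), a difference of 0.56. Vcam1 lay at -1.61 ± 0.26 and -1.14 ± 0.33, a difference of 0.47. Pecam1 had a smaller difference of 0.15 on this scale, from 1.68 ± 0.05 to 1.83 ± 0.04, and all 5 S1Pless hearts lay above all controls. How many of all genes separate in this way on this scale was not computed. Jam2 and F11r were lower on this scale by 0.15 and 0.11, with overlapping groups. When the counts were scaled so that the summed endothelial markers were equal in every heart, Icam1 still passed (log2 fold change 0.65) and Vcam1 did not (log2 fold change 0.57, adjusted p = 0.0695). Pecam1 did not pass in that edgeR fit either (log2 fold change 0.23, adjusted p = 0.238). With library totals alone as the scale, which moved the median of all tested genes from -0.01 to 0.12, Icam2 (adjusted p = 0.0362) and Pecam1 (adjusted p = 0.0112) passed as well, and 99.1% of the calls over all genes were then higher in S1Pless hearts, against 91.5% with TMM factors.

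Summed markers of leukocytes and of macrophages were higher in S1Pless hearts, and single markers were called in part. The summed level of 8 of 8 pan-leukocyte markers was 86.0 to 110 CPM in controls and 133 to 276 CPM in S1Pless hearts, and that of 10 of 10 macrophage markers 188 to 248 and 296 to 655 CPM, with S1Pless replicate 5 highest in both. Of the 8 and the 10, edgeR called 5 and 4 higher and none lower, beside 3.40% and 0.316% of all tested genes. S1Pless hearts lay above all controls in 4 of the 8 and 4 of the 10, beside 4.53% of all tested genes. Neutrophil markers (6 of 7) summed to 3.18 to 18.8 CPM in controls and 10.7 to 18.01 CPM in S1Pless hearts. T and B cell markers (9 of 9) summed to 3.30 to 5.92 and 3.50 to 8.12 CPM, and of these 9 genes 3 passed the filter. Macrophages and lymphocytes can express Icam1, and their part in the group difference of Icam1 and Vcam1 was not tested. Fibroblast markers (8 of 8) summed to 1658 to 2434 CPM in controls and 2158 to 2509 CPM in S1Pless hearts, and markers of pericytes and smooth muscle (8 of 8) to 1642 to 1875 and 1617 to 1864 CPM. Of the 8 fibroblast markers edgeR called 1 higher, beside 3.40% of all tested genes, limma-voom 1 and DESeq2 3, and none was called lower. Lymphatic endothelial markers (7 of 7) summed to 130.0 to 171 and 161 to 209 CPM. Of the 7, edgeR called 4 higher, beside 3.40% of all tested genes, and 1 was lower at an unadjusted p below 0.05. Markers of venous endothelium (6 of 6), where selectins are mainly displayed, summed to 191 to 225 CPM and 192 to 235 CPM. Of 5 tested venous markers 0 were called by edgeR, DESeq2 or limma-voom. In edgeR 3 were higher at an unadjusted p below 0.05, as were 13.0% of all tested genes. Endocardial markers (6 of 6) summed to 25.9 to 68.8 and 50.0 to 59.4 CPM, red cell markers (5 of 5) to 32.2 to 143 and 73.9 to 172 CPM, and epicardial markers (4 of 6) to 6.76 to 9.54 and 9.79 to 16.3 CPM. Only 1 of the 4 epicardial markers passed the filter, and edgeR called it higher, as it did 3.40% of all tested genes.

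The receptors that leukocytes use to bind these molecules were higher in part. Of 16 listed counter-receptor genes, 14 were in the count table and tested. Absent from the table were Cd177 and Itgam, the alpha chain of Mac-1. Of the 14 tested genes, 5 were called higher in S1Pless hearts and none lower, beside 3.40% and 0.316% of all tested genes. The median log2 fold change of the 14 was 0.85. Itgax, the integrin alpha chain of dendritic cells and some macrophages, rose 2.97-fold from 1.10 ± 0.20 to 3.28 ± 1.2 CPM (adjusted p = 0.0116 in edgeR's test). Itga4, the alpha chain of the VCAM-1 receptor VLA-4, rose 2.37-fold from 3.10 ± 0.94 to 7.34 ± 2.6 CPM (adjusted p = 0.0192). Selplg, which encodes the P-selectin ligand PSGL-1, rose 1.91-fold (adjusted p = 0.0192), Cd44, a hyaluronan receptor that can also carry selectin ligands, 1.89-fold (adjusted p = 0.0177) and Itgal, the alpha chain of the ICAM receptor LFA-1, 2.00-fold (adjusted p = 0.0287). In each of these 5 genes every S1Pless heart lay above every control. This held in 7 of the 14 genes, beside 4.53% of all tested genes. Of the 5 called genes, S1Pless replicate 5 was highest in all but Itgax. Itgb2, the shared beta chain of LFA-1 and Mac-1, had a log2 fold change of 0.92 ± 0.24 (SE; adjusted p = 0.0521) and did not pass. Itgb1, the beta chain of VLA-4 that most cell types express, had 409 ± 40 and 416 ± 54 CPM (control and S1Pless, SD, n = 5 each). Itgb1 did not pass. Cd44, Selplg and Itga4 lost their calls without control replicate 3 or 4 (adjusted p of 0.0521 to 0.0544).

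Other endothelial proteins of leukocyte entry showed no call. None of the 12 tested genes of this list passed in edgeR's test, while 5 had an unadjusted p below 0.05, limma-voom called 0 and DESeq2 3 (Cd34, Cx3cl1 and Alcam). Of all tested genes 13.0% were higher at an unadjusted p below 0.05. The median log2 fold change of the 12 genes of this list was 0.18. The smallest p-values were those of Cd34, a sialomucin, with 132 ± 13 CPM in the control and 178 ± 29 CPM in the S1Pless group (adjusted p = 0.0658), and of Cx3cl1, the membrane-bound chemokine fractalkine, with 15.1 ± 2.8 and 21.8 ± 4.8 CPM (SD, n = 5 each; adjusted p = 0.0809). DESeq2 called both Cd34 (adjusted p = 0.0178) and Cx3cl1 (adjusted p = 0.0346). Of the 10 tested genes that build selectin ligands 0 passed in edgeR, DESeq2 or limma-voom and 1 had an unadjusted p below 0.05, with a median log2 fold change of 0.16. Fut4, a fucosyltransferase of selectin ligands, had a log2 fold change of 0.60 ± 0.23 (SE; adjusted p = 0.176) and B4galt5, a galactosyltransferase, of 0.31 ± 0.16 (adjusted p = 0.295). Fut7, the main selectin-ligand fucosyltransferase of leukocytes, was absent from the count table.

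The listed inducers and regulators of adhesion genes were higher in part. Of 22 tested genes 4 were called higher and none lower, beside 3.40% and 0.316% of all tested genes. The 4 include Tnf, the only cytokine called, which reached the filter in S1Pless hearts alone, so 3 calls are free of that limit. The median log2 fold change of the 22 was 0.26. Tnf, the cytokine that induces Sele, Icam1 and Vcam1, averaged 0.231 ± 0.19 CPM in the control and 1.19 ± 0.43 CPM in the S1Pless group (SD, n = 5 each). This rests on 1 to 9 reads in a control heart and 15 to 40 in an S1Pless heart. No control and all 5 S1Pless hearts reached the 0.532 CPM of the filter, so Tnf entered the test only through the group where it was higher, and its 4.99-fold difference (95% interval 2.58-fold to 9.65-fold, adjusted p = 0.0173 in edgeR's test) is read with that limit. The other 3 called genes reached the filter in every heart. Relb, an NF-kappaB subunit, rose 1.84-fold, Tnfaip3, which encodes the NF-kappaB inhibitor A20, 1.95-fold and Tnfrsf1b, a receptor for tumour necrosis factor, 1.54-fold (adjusted p = 0.00887, 0.0107 and 0.0404). Whichever of the 10 hearts was left out, Relb and Tnfaip3 passed. Tnfrsf1b passed in 1 of the 10 fits, that without S1Pless replicate 2 (adjusted p up to 0.0893). Tnf passed in all 10 fits, with the same limit from the filter. With no filter Tnf passed as well (log2 fold change 2.32, adjusted p = 0.0164 in edgeR's test). Under a filter of 1 CPM in 5 libraries Tnf was not tested.

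**Figure D3:**
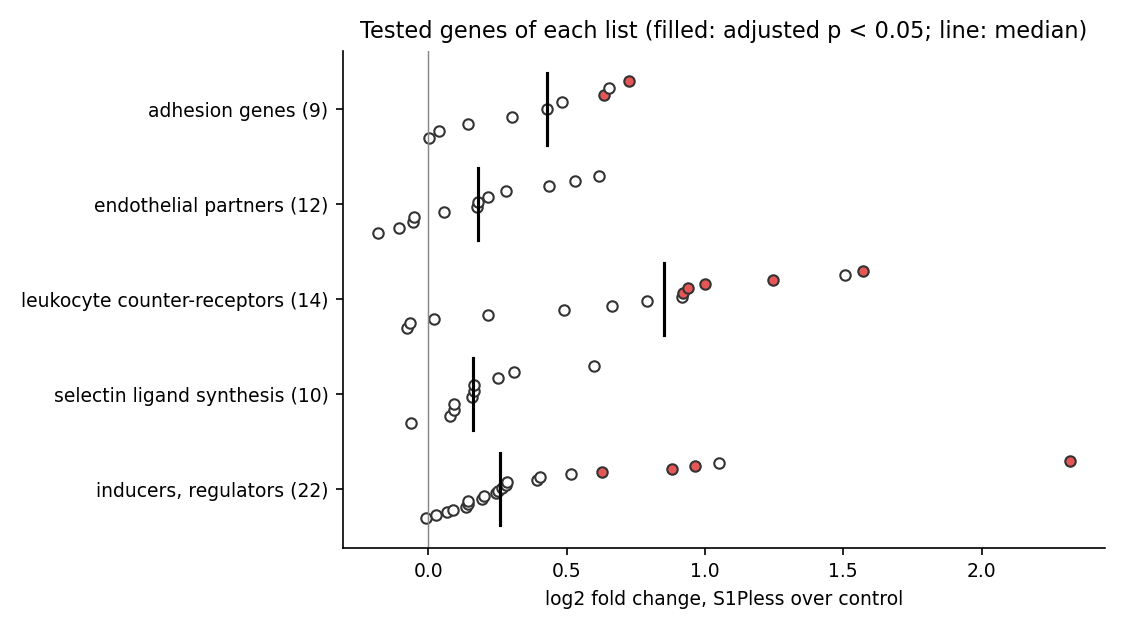
Log2 fold change of S1Pless over control (x axis) for each tested gene of the adhesion set and of 4 pathway lists, with the number of tested genes in parentheses. Filled points passed an adjusted p of 0.05 and vertical lines are medians, which are 0.43 for the adhesion genes, 0.18 for other endothelial partners, 0.85 for counter-receptors, 0.16 for selectin ligand synthesis and 0.26 for inducers and regulators.

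The 9 genes varied in different ways within the groups. After the group means were subtracted, the log2 CPM of Icam1 over the 10 hearts correlated most, among the other 8 genes, with Selp (Pearson 0.81, Spearman 0.82) and Sele (0.72 and 0.70), less with Vcam1 (0.53 and 0.54) and hardly with Icam2, Jam2 or Jam3 (Pearson 0.14, -0.01 and 0.11). For Vcam1 the highest values were those with Icam1 and with Icam2 (0.51 and 0.53). Of the 11991 named genes that averaged 1 CPM or more, those most like Icam1 were the DNA helicase gene Helq (Pearson 0.96, Spearman 0.98), the lysosomal gene Dram1 (0.94 and 0.92) and the glycosyltransferase gene A4galt (0.93 and 0.92). Those most like Vcam1 were Tifa, an adaptor of NF-kappaB signalling (0.94 and 0.95), B3gntl1 (0.93 and 0.90) and the serotonin receptor gene Htr7 (0.93 and 0.94). None of these 6 genes was called between the groups. These correlations describe 10 libraries that share depth and scaling. Selp rests on few reads, and the genes most like each were picked as the highest of all.

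**Figure D4:**
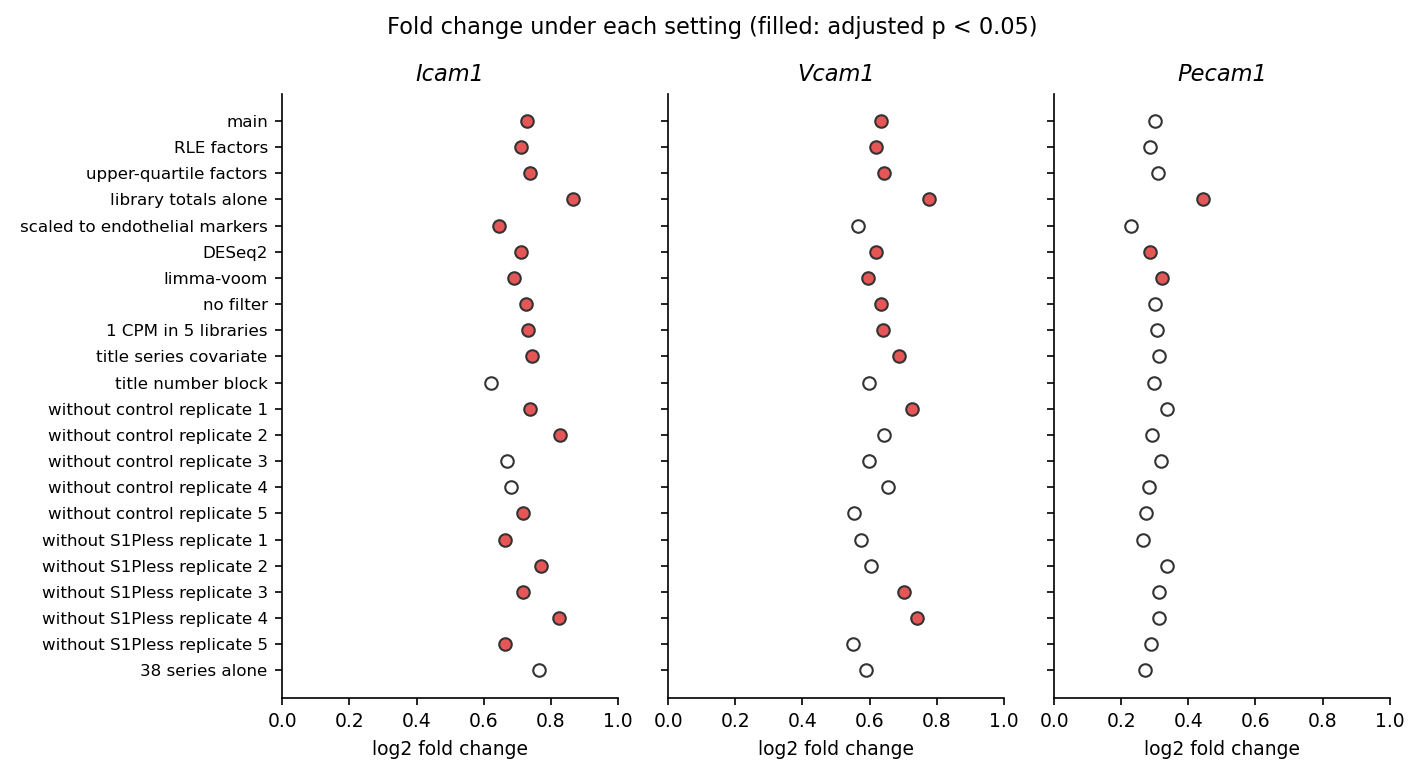
Log2 fold change (x axis) of Icam1, Vcam1 and Pecam1 under each scaling, tool, filter, covariate and choice of hearts (rows). Filled points passed an adjusted p of 0.05 over all genes tested in that fit. The fold changes of Icam1 stay between 0.62 and 0.87 and those of Vcam1 between 0.55 and 0.78, whereas which of them pass differs between the fits.

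No source used here explains the title numbers, and 4 controls and 3 S1Pless hearts have numbers of the 38 series. Within these 7 hearts neither Icam1 nor Vcam1 passed, as given above. The 44 series held 1 control, at 16.3 CPM of Icam1 and 17.8 CPM of Vcam1, and S1Pless replicates 4 and 5, and gives no test of its own. With the series as a covariate both genes passed. With a block for hearts of neighbouring numbers neither did. Of 8 called genes of the pathway lists refitted in the same way, Tnfaip3 kept its call with that block while Cd44, Itga4, Itgax, Relb, Selplg, Tnf and Tnfrsf1b lost theirs (adjusted p of 0.0530 to 0.130), and Cd44 kept its call within the 38 series while the other 7 of these 8 genes lost theirs. By the sample numbers in the column names every control library comes before every S1Pless library, so that order and the group cannot be told apart.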

How the data were processed

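Gene expression was measured by RNA sequencing of whole hearts, with libraries from a stranded mRNA kit per the labels' protocols. The authors deposited 1 table of raw read counts with an Ensembl gene in each line. Per the submitters' processing notes, STAR 2.7.8a, featureCounts 2.0.1 and GRCm39 were used. Annotation release, strand setting and gene selection are not given in the sources consulted. By GENCODE M21, exons of opposite-strand genes cover 36.2% of the exon bases of Jam3, 14.1% of Selp, 11.7% of Icam1 and 0.688% of Vcam1, where reads may be shared or dropped.

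The 9 genes and all gene lists were chosen with earlier results of these data known. Symbols and lengths came from GENCODE M21 (20 identifiers without a symbol), an older build than that of the counts, so no coordinates are given except those of RefSeq's own promoter windows. Groups follow the genotype label, replicate numbers only name the hearts, and the labels list each heart as its own sample.

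The comparison used edgeR 4.0.16 (R 4.3.3) with filterByExpr (minimum count 10), TMM factors and the robust quasi-likelihood F test, two-sided. P-values were adjusted by Benjamini-Hochberg over all 12992 tested genes, and the threshold was 0.05. Each SE is the log2 fold change over the square root of F, and 95% intervals use its t distribution. All 20 same-group pairs of libraries differed by more than sampling noise, with at least 10.1 for the chi-square per degree of freedom. Counts were also simulated for all 12992 tested genes, 5 hearts against 5, with changes planted in genes drawn at random. There the test recovered 50.7% of 1.5-fold, 73.1% of 2-fold and 98.5% of 4-fold changes, and 5.13% of its calls were false. These rates are not specific to the 9 genes. Genes named in the text are the 9, both kinases, up to 4 called genes of each pathway list or else the 2 with the smallest p, and the 3 genes most like Icam1 and Vcam1. Named outside this rule, after their values were seen, were Erg, Mmrn2, Flt1, Cd93, Alcam, Itgal, Itgb2, Itgb1, Fut7 and the platelet markers Pf4, Ppbp, Itga2b and Gp1bb. Itgam and Cd177 were named because they are absent. Log2 CPM used a prior count of 2. Alternatives were RLE and upper-quartile factors, library totals, scaling to endothelial markers, DESeq2 1.42.0, limma-voom (limma 3.58.1), other filters, a covariate or block from the title number, and omission of each heart in turn. A fit of the 38 series alone and another gene length were chosen after seeing the data.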

Additional observations from a re-analysis of the deposited data

Results flagged for a closer look

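Of 18 groups of 5 hearts examined (9 genes in 2 groups), 1 had a heart far from the other 4. Jam3 in S1Pless replicate 1 was at 30.8 CPM, while the other 4 S1Pless hearts lay between 20.6 and 23.6 CPM. Its gap to the nearest heart was 0.712 of the range of the group, against a critical value of 0.71. Chance flags about 1 in 20 groups.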

How the results depend on the processing

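The number of adhesion genes called higher was 2, and 0 were called lower in any fit. The count of higher genes was 4 with library totals alone (Icam1, Vcam1, Icam2 with a log2 fold change of 0.57 and Pecam1 with 0.44), 1 with scaling to endothelial markers (Vcam1 at 0.57 lost), and 0 with the block of neighbouring title numbers (Icam1 at 0.62 and Vcam1 at 0.60 lost) and in the 38 series alone (0.77 and 0.59 lost). Pecam1 was also called by DESeq2 (0.29) and limma-voom (0.32). With a heart left out, 0 to 2 genes were called: none without control replicate 3 or 4, Icam1 alone when control replicate 2 or 5 was omitted, or S1Pless replicate 1, 2 or 5, and both genes otherwise. Over those 10 fits the log2 fold change was 0.66 to 0.83 for Icam1, 0.55 to 0.74 for Vcam1, 0.26 to 0.54 for Icam2, 0.27 to 0.34 for Pecam1, 0.40 to 0.83 for Sele, 0.09 to 1.02 for Selp and -0.022 to 0.051 for Jam2. Jam2, whose value was 0.0034, turned negative with RLE factors (-0.012), endothelial scaling (-0.069), DESeq2 (-0.012), the title series covariate (-0.019) and the block (-0.062), and F11r with endothelial scaling (-0.030). Neither passed in any fit. Over all genes, 1420 were higher and 13 lower with library totals, 231 and 34 with endothelial scaling, 764 and 264 with DESeq2, 80 and 8 with the block and 45 and 1 in the 38 series, against 442 and 41, and with a heart left out 118 to 504 were higher and 8 to 85 lower. The cause of these changes was not tested, and fits that left hearts out also held fewer hearts. The block fit drew no group contrast from control replicates 3 and 4. DESeq2 called 8 counter-receptor genes against 5 and 9 inducers and regulators against 4. Filters, RLE and upper-quartile factors and the series covariate kept the calls of Icam1 and Vcam1. The labels give no replicate numbers that groups share, and whether hearts of neighbouring title numbers are pairs is not stated. Selp and Sele rest on 130 and 273 reads in all, and how far depth, rather than the spread between hearts, limits them was not tested.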
